A study of Homo sapiens with 6 samples.

Results

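The 8 genes described here encode enzymes of the pentose phosphate pathway and the enzymes that hand its product on to nucleotide synthesis. They were chosen by name: PGLS and PGD of the oxidative branch, RPIA, RPE, TKT and TALDO1 of the non-oxidative branch, and the phosphoribosyl pyrophosphate (PRPP) synthetases PRPS1 and PRPS2. Each had 1 row among the 60664 genes of the expression table, and all 8 were among the 14286 genes tested. Expression was measured by RNA-seq in 67R cells, a derivative of the human lung adenocarcinoma line NCI-H1975 that had acquired resistance to the EGFR inhibitor ASK120067 under escalating doses. The control group (siNC) received a negative control siRNA and the knockdown group (siBCAT1) an siRNA against BCAT1, which encodes the cytosolic branched-chain amino acid transaminase. Each group had 3 libraries, and all 6 came from the same resistant line, with no library of parental cells among them. The study made these libraries to examine how BCAT1 expression relates to glycolysis in its resistant cells.

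The pentose phosphate pathway branches off glycolysis at glucose-6-phosphate. Its oxidative branch yields NADPH, which cells spend on reductive synthesis and on keeping glutathione reduced, and ends in ribulose-5-phosphate. An isomerase and an epimerase turn ribulose-5-phosphate into ribose-5-phosphate and xylulose-5-phosphate. Transketolase and transaldolase then exchange carbon units between sugar phosphates, in both directions, and connect these pentoses with the glycolytic intermediates fructose-6-phosphate and glyceraldehyde-3-phosphate. PRPP synthetases activate ribose-5-phosphate for the synthesis of purines, pyrimidines and NAD. Tumor cells commonly rely on the pathway for both NADPH and ribose.

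The deposited values were TPM, an abundance in transcripts of a gene relative to all transcripts. They are scaled for gene length and library total, so levels can be compared between genes. Read counts cannot be had from them, so the depth of the libraries is unknown and error could be judged only from replicate libraries. The labels do not state whether the libraries of a group came from separate cultures, so p-values measure the spread between these libraries, which may be technical. BCAT1 itself was at 29.8 to 42.7 TPM in siNC and at 7.10 to 8.78 TPM in siBCAT1 libraries (log2 fold change -2.12, standard error 0.15, adjusted p = 0.000272, limma with Benjamini-Hochberg adjustment). Of 10 markers of lung epithelium and adenocarcinoma, the keratins KRT7, KRT8, KRT18 and KRT19 carried most of the signal, whereas NKX2-1, NAPSA and SFTPB reached at most 0.33 TPM. The summed level of these 10 markers was 2564 to 2970 TPM in siNC and 1664 to 1952 TPM in siBCAT1 libraries, and 5 of the 7 tested fell, against 10.4% of all tested genes. Those that fell were the keratins named above and CDH1. The mean of CDH1 went from 19.7 ± 8.34 TPM in siNC to 3.10 ± 1.95 TPM in siBCAT1 cells (SD of 3 libraries; log2 fold change -2.41, standard error 0.45, adjusted p = 0.00881, limma). The other 2 did not pass the test. EPCAM was higher in siBCAT1 cells (log2 fold change 0.56, adjusted p = 0.0732, limma) and EGFR lower (-0.41, adjusted p = 0.0643, limma). That of 9 markers of blood, vessel and fibroblast cells was 270 to 293 TPM and 240 to 289 TPM, nearly all of it COL1A2 and CD68, and of 3 tested CD68 rose and PDGFRB fell. PTPRC was at 0 in 5 libraries, and CD3E and DCN were at 0 in all 6. The part of these marker changes in the results below was not tested. In bulk samples of a cell line, fewer cells that express a marker and less of its RNA per cell cannot be told apart.

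After BCAT1 knockdown, 2 of the 8 genes rose, and both encode the enzymes that act directly on ribulose-5-phosphate. RPIA, the ribose-5-phosphate isomerase, rose to 1.67 times its control level on the scale of TPM + 1, and RPE, the ribulose-5-phosphate epimerase, to 1.32 times. The call of RPE was lost under most of the alternatives in the fit given below. No gene of the 8 was called lower in the reported fit, although some alternatives called 1 or 2 lower. The other 6 (PGLS, PGD, TKT, TALDO1, PRPS1 and PRPS2) did not pass the test, with log2 fold changes between -0.25 and 0.19. Among all tested genes 27.1% passed an adjusted p under 0.05, of which the higher genes made up 16.7% and the lower ones 10.4% of the genes tested. A count of 2 in 8 is therefore close to the share of the transcriptome as a whole. The median log2 fold change of the 8 genes was -0.06, against 0.04 for all tested genes.

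**Figure D1:**
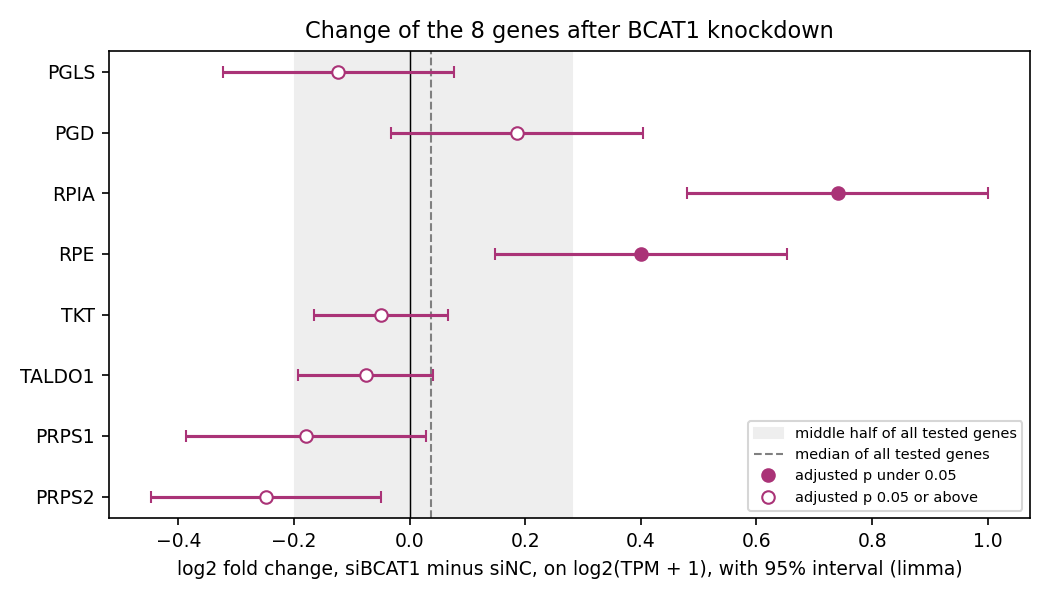
Log2 fold change of each of the 8 genes (siBCAT1 minus siNC, on log2(TPM + 1)) with its 95% interval from limma. Filled points, RPIA at 0.74 and RPE at 0.40, had an adjusted p under 0.05, and open points did not; the grey band spans the middle 50% of all tested genes, from -0.20 to 0.28.

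TKT was on average 20.9 times as abundant as RPIA in siNC cells, the widest ratio among the 8 transcripts. Its mean was 366 TPM, followed by TALDO1 (193 TPM), PRPS2 (138 TPM), PRPS1 (127 TPM), PGD (102 TPM), PGLS (86.4 TPM), RPE (51.4 TPM) and RPIA (17.7 TPM). In this order the libraries of PRPS2 and PRPS1 overlapped, as did those of PGD and PGLS, and every other pair of neighbours was apart. In siBCAT1 cells the libraries of PRPS1 and PGD overlapped and those of PGD and PGLS did not, although none of PGD, PGLS, PRPS1 and PRPS2 passed the test between the groups. TKT stood above 97.5% of the tested genes in mean level and RPIA above 64.1%.

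**Figure D2:**
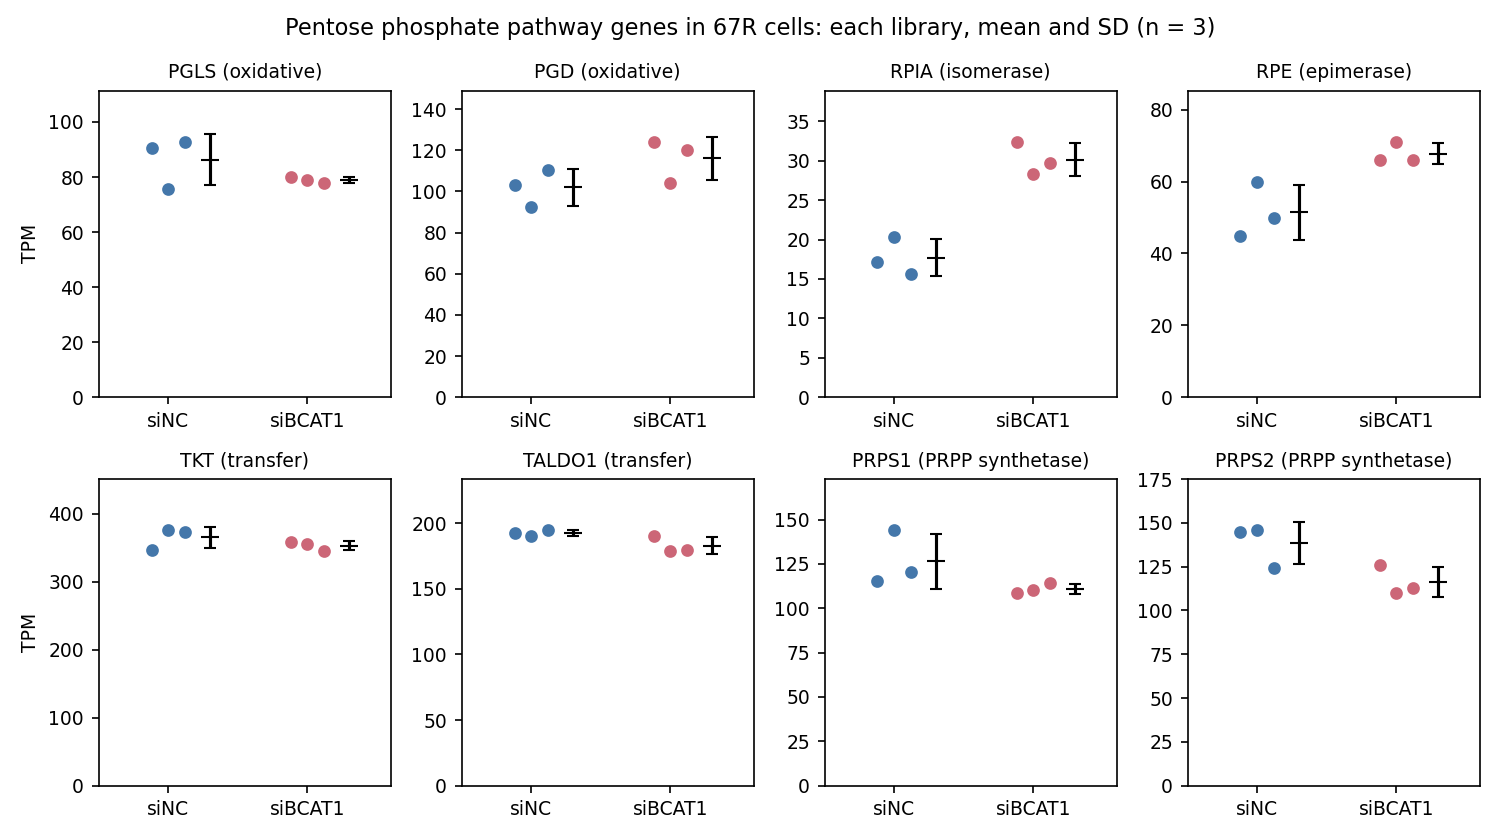
TPM of each gene in every library, on axes that start at 0. Points are the 3 siNC and 3 siBCAT1 libraries and the bar beside them gives the mean and SD; the groups are apart for RPIA, RPE, TALDO1 and PRPS1, the latter pair by a narrow margin.

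RPIA (ENSG00000153574) converts ribulose-5-phosphate into ribose-5-phosphate, the precursor of every nucleotide. Its gene lies on the plus strand of chromosome 2, from 88691644 to 88750935 in GRCh38, and GENCODE 29 lists 1 transcript with 9 exons. RPIA had 17.1, 20.4 and 15.7 TPM in the controls and 32.4, 28.3 and 29.7 TPM after knockdown, in replicate order. All knockdown libraries lay above all control libraries, with a gap between the groups wider than the spread within either. The mean rose from 17.7 ± 2.39 to 30.2 ± 2.09 TPM (SD of 3 libraries). On the log2(TPM + 1) scale the change was 0.74 (standard error 0.11, 95% interval 0.48 to 1.00, adjusted p = 0.00357, limma), and 10.1% of the tested genes changed more in either direction.

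RPE (ENSG00000197713) converts ribulose-5-phosphate into xylulose-5-phosphate, the sugar from which transketolase takes its carbon units. It lies on the plus strand of chromosome 2, from 210002565 to 210022259, and GENCODE 29 lists 16 transcripts, 15 of them protein coding. RPE had 44.7, 59.8 and 49.8 TPM in the controls and 66.1, 71.1 and 66.0 TPM after knockdown, in replicate order. The groups did not overlap, though siNC replicate 2 stood well above the other control libraries and nearer to the knockdown libraries. The mean rose from 51.4 ± 7.67 to 67.8 ± 2.93 TPM (SD of 3 libraries; log2 fold change 0.40, standard error 0.11, 95% interval 0.15 to 0.65, adjusted p = 0.0320, limma). This call was less secure than that of RPIA. It was lost under 9 of 13 alternatives in the fit, with an adjusted p of at most 0.0994, whereas its log2 fold change stayed between 0.31 and 0.51. Without siNC replicate 2 the adjusted p was 0.00620, and without any 1 of the other 5 libraries it was between 0.0720 and 0.0994.

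Together, RPIA and RPE summed to 61.9 to 80.2 TPM in siNC and 95.8 to 99.4 TPM in siBCAT1 libraries, from 6.39% to 9.27% of the summed TPM of the 8 genes. RPE was the more abundant of the pair in every library, and its ratio to RPIA was 2.91 ± 0.28 in siNC and 2.26 ± 0.24 in siBCAT1 cells (SD of 3 libraries). The annotation lists 1 processed pseudogene of RPIA, at 0 TPM in all libraries, and 6 of RPE, none above 0.37 TPM. Reads shared with these copies make the values less certain, and by how much was not tested. The opposite-strand gene KANSL1L shares 837 bases with the RPE locus and was at 1.46 to 2.21 TPM.

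The upstream sequences of both genes are shown because these were the only members to rise. They run from 250 bases before the RefSeq start to the last base before the first exon in GENCODE 29, on the plus strand of chromosome 2 (GRCh38.p14), chr2:88691423-88691643 for RPIA and chr2:210002388-210002564 for RPE. Capitals mark a match to any of 4 words searched on both strands: TGACNNNGC (the core of the antioxidant response element), CACGTG (the E-box), ACGTG (the core of the hypoxia response element, which every E-box also holds) and TGATGNAA (an amino acid response element).
RPIA: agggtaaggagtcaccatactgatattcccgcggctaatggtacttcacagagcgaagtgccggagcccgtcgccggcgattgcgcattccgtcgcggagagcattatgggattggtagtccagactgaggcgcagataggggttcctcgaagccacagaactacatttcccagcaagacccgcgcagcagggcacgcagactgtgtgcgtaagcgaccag
RPE: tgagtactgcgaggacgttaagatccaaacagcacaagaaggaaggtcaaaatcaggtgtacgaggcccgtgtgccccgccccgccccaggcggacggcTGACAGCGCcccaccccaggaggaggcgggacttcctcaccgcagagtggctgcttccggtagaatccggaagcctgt

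RPIA held none of the 4 words and RPE held 1, TGACNNNGC, whose first base lay at position -151 from the RefSeq start. All 8 members had a RefSeq window of 300 bases, and the only other member with a match was PGD, with TGACNNNGC and ACGTG, each on the minus strand. The PGD window, from 10398814 to 10399113, lies downstream of the GENCODE start of that gene at 10398592, and thus within the annotated gene. Among 35116 windows of this length, TGACNNNGC occurred in 13.3%, CACGTG in 7.26%, ACGTG in 21.4% and TGATGNAA in 3.62%. The windows of the 8 genes were at least 61.0% G and C, against a median of 58.7% for all windows. These matches describe letters only.

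TKT and TALDO1 carry the reversible exchange of carbon units between pentose phosphates and glycolysis, and neither passed the test. TKT (ENSG00000163931, chromosome 3, 53224707 to 53256052, minus strand) encodes transketolase, which moves 2-carbon units. It had 348, 376 and 373 TPM in the controls and 359, 355 and 346 TPM after knockdown, in replicate order, and the groups overlapped. The log2 fold change was -0.05 (95% interval -0.17 to 0.07, adjusted p = 0.493, limma), so that the interval of the fold reached from 0.892 to 1.05. TALDO1 (ENSG00000177156, chromosome 11, 747329 to 765024, plus strand) encodes transaldolase, which moves 3-carbon units. It had 193, 191 and 195 TPM in the controls and 190, 179 and 180 TPM after knockdown, in replicate order. All knockdown libraries were lower than all control libraries, but siBCAT1 replicate 1 only just so, at 190.35 TPM against 190.56 TPM in siNC replicate 2. For TALDO1 the log2 fold change was -0.08 (95% interval -0.19 to 0.04, adjusted p = 0.302, limma). Under quantile normalization it was -0.18 and past the threshold (adjusted p = 0.0353).

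The ratio of TKT to TALDO1 was 1.90 ± 0.09 in siNC and 1.93 ± 0.05 in siBCAT1 cells (SD of 3 libraries), within the spread of either group. TKT to RPIA moved from 18.5 to 23.8 in the siNC libraries to 11.1 to 12.5 in the siBCAT1 libraries. Transketolase and transaldolase transcripts made up 51.7% of the summed TPM of the 8 genes in siNC and 50.7% in siBCAT1 cells.

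**Figure D3:**
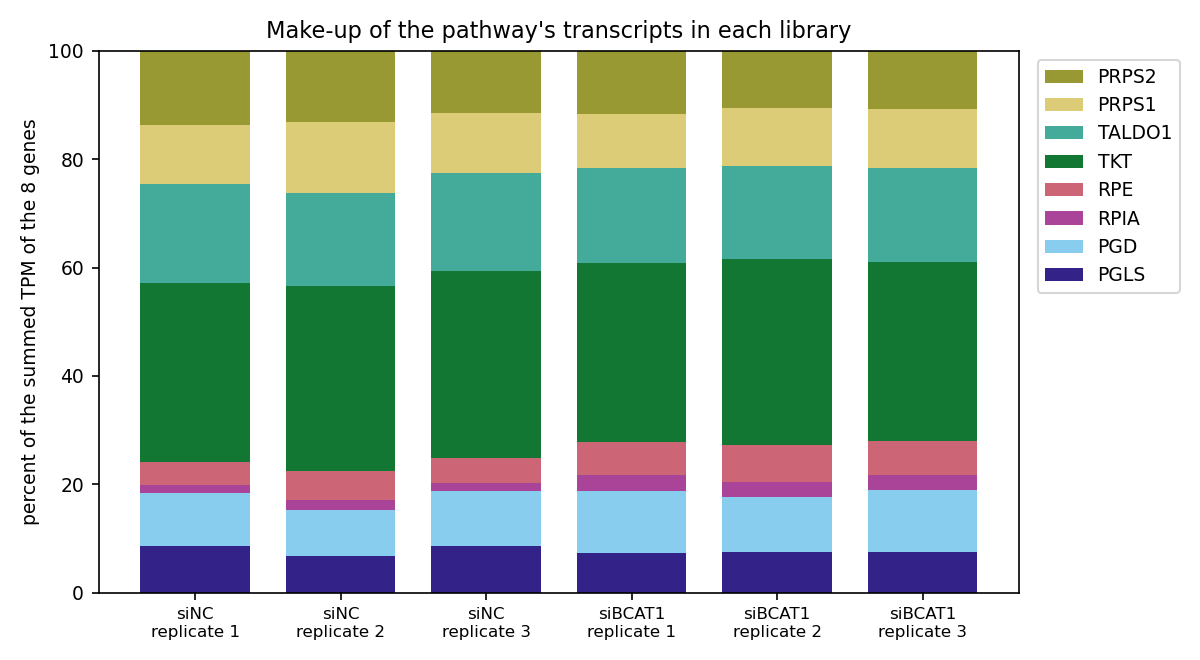
Share of each gene in the summed TPM of the 8 genes, in percent, for each library. TKT took between 32.9% and 34.5% in every library, while RPIA went from a mean of 1.64% in siNC to 2.85% in siBCAT1 and RPE from 4.75% to 6.42%.

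In the oxidative branch neither gene passed the test. PGLS (ENSG00000130313, chromosome 19, 17511629 to 17521288, plus strand) encodes 6-phosphogluconolactonase, which opens the lactone ring ahead of the decarboxylating step. It had 90.4, 75.8 and 92.9 TPM in the controls and 80.1, 78.8 and 77.8 TPM after knockdown, in replicate order. The control libraries were spread on both sides of the tightly grouped knockdown libraries, with coefficients of variation of 10.7% and 1.41%. The log2 fold change was -0.12 (95% interval -0.32 to 0.08, adjusted p = 0.326, limma). Leaving out siNC replicate 2 gave -0.21, past the threshold (adjusted p = 0.0362). A noncoding gene on the opposite strand, AC010618.3, shares 261 bases with PGLS and was at 8.97 to 15.3 TPM.

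PGD (ENSG00000142657, chromosome 1, 10398592 to 10420144, plus strand) encodes 6-phosphogluconate dehydrogenase, which makes NADPH and ribulose-5-phosphate. It had 103, 92.5 and 110 TPM in the controls and 124, 104 and 120 TPM after knockdown, in replicate order. In both groups replicate 2 was the lowest library, and siBCAT1 replicate 2 fell within the range of the controls. Its log2 fold change was 0.19 (95% interval -0.03 to 0.40, adjusted p = 0.183, limma), and 0.12 without siNC replicate 2. The ratio of PGD to PGLS was between 1.14 and 1.22 in siNC and between 1.32 and 1.55 in siBCAT1 libraries. The sum of both transcripts was 188 ± 18.1 TPM and 195 ± 10.9 TPM (SD of 3 libraries).

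The PRPP synthetases had lower mean values in siBCAT1 cells without passing the test. They catalyse the same reaction, the transfer of pyrophosphate from ATP to ribose-5-phosphate, and both genes lie on the X chromosome. PRPS1 (ENSG00000147224, 107628424 to 107651026, plus strand) had 115, 144 and 120 TPM in the controls and 109, 110 and 114 TPM after knockdown, in replicate order. The groups did not overlap, and siNC replicate 2 stood apart from all other libraries. This left a log2 fold change of -0.18 (95% interval -0.39 to 0.03, adjusted p = 0.178, limma), and without siNC replicate 2 it was -0.083. PRPS2 (ENSG00000101911, 12791355 to 12824222, plus strand) had 145, 146 and 124 TPM in the controls and 126, 110 and 113 TPM after knockdown, in replicate order. The groups overlapped, because siNC replicate 3 was below siBCAT1 replicate 1. For PRPS2 the log2 fold change was -0.25 (95% interval -0.45 to -0.05, adjusted p = 0.0681, limma).

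PRPS2 was the member nearest to the threshold among those not called. It had an adjusted p of 0.0228 under median-ratio scaling, 0.0266 under quantile normalization and 0.0367 without siNC replicate 3. With the replicate number as a block it was 0.0447, although the labels do not say what a number stands for. PRPS2 supplied 52.3% ± 2.97 of the summed PRPS1 and PRPS2 level in siNC and 51.1% ± 2.20 in siBCAT1 cells (SD of 3 libraries). The change of PRPS1 minus that of PRPS2 was 0.07 on the log2 scale, which an exact permutation test over the 6 libraries, two-sided, did not tell from 0 (p = 0.5, where the smallest p possible is 0.1). Without siNC replicate 1 the sign of this difference turned, to -0.03. The annotation lists 2 processed pseudogenes of PRPS1, of which PRPS1P2 was at 0.86 to 2.97 TPM. The third family gene, PRPS1L1, was at 0 in all libraries.

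Across the 8 genes, 4 had groups that did not overlap, RPIA and RPE above and TALDO1 and PRPS1 below the controls. Among all tested genes the groups did not overlap for 44.1%, with 26.1% higher and 18.0% lower in siBCAT1 cells. The summed TPM of the 8 genes was 1081 ± 24.6 in siNC and 1056 ± 26.4 in siBCAT1 cells (SD of 3 libraries), and the ranges of the groups overlapped, from 1056 to 1105 and from 1037 to 1086.

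**Figure D4:**
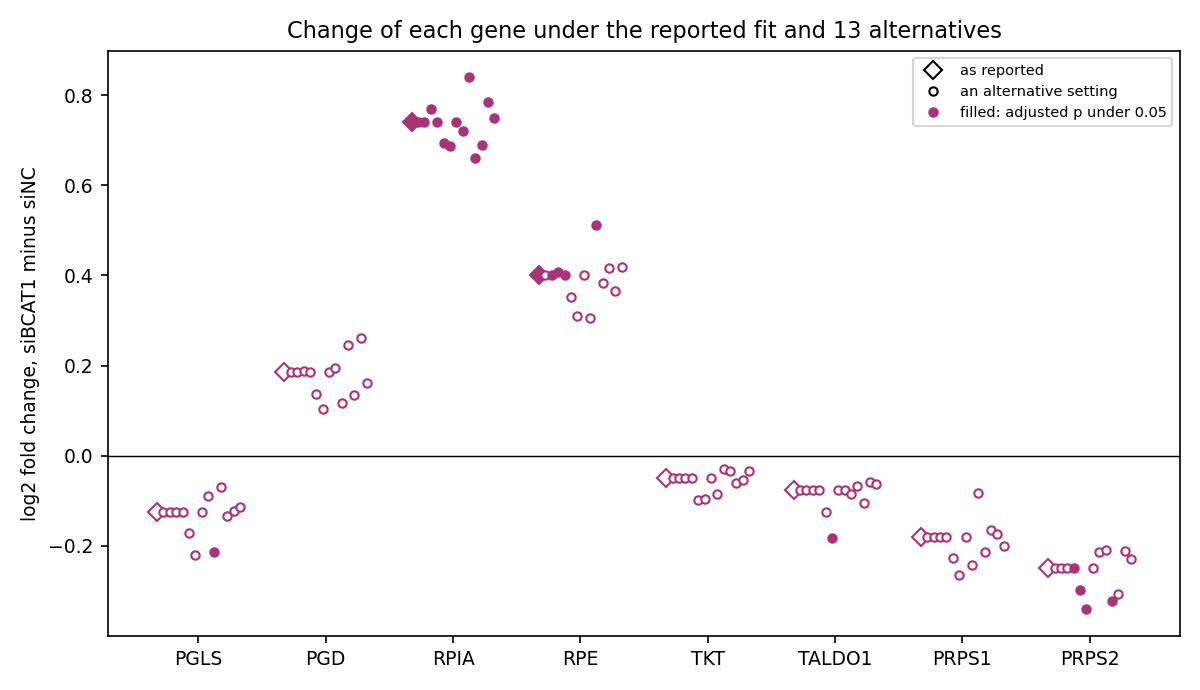
Log2 fold change of each gene under the reported fit (diamond) and 13 alternatives (circles), filled where the adjusted p was under 0.05. RPIA was filled throughout, RPE under the reported fit and 4 alternatives, PRPS2 under 4, TALDO1 and PGLS under 1 each, and TKT, PGD and PRPS1 under none.

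The 3′ UTRs of the members were searched for the 7-base words that pair with bases 2 to 8 of the guide strands of the study's siRNAs, AGACAAT for siBCAT1-1 and TTGAGCA for siBCAT1-2, since such sites can lower a transcript apart from the intended target. The labels do not state which of them was used for the libraries, and the study's methods also call siBCAT1-2 by the plain name siBCAT1 that the sample titles carry. No member held AGACAAT, which occurred in 9.01% of 11545 tested genes with an annotated 3′ UTR. RPE, PRPS1 and PRPS2 each held TTGAGCA once, against 11.5% of these genes. That share was not matched for 3′ UTR length, and a longer 3′ UTR has more places for a word. The length was 1785 bases in RPE, 994 in PRPS1 and 1426 in PRPS2, and 179 to 1049 bases in the other members. The sites are shown with 10 bases on either side, the word in capitals, on the plus strand of GRCh38, at chr2:210019885-210019911 for RPE, chrX:107650523-107650549 for PRPS1 and chrX:12823532-12823558 for PRPS2.
RPE: tactgcttttTTGAGCAgttattcatt
PRPS1: gcagctcagcTTGAGCAgacattgggt
PRPS2: caaaattataTTGAGCAatcgccaagg

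Of these genes RPE rose, while PRPS1 and PRPS2 had negative log2 fold changes that did not pass the test. RPIA held neither word. The part of such sites in the values was not tested.

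Among 15 side enzymes and relatives of the pathway, 10 were tested, 2 rose and none fell, with a median log2 fold change of 0.10. The share called in either direction was no higher than the 27.1% of all tested genes, where 16.7% were higher and 10.4% lower. IDNK, a gluconate kinase that feeds 6-phosphogluconate into the pathway, rose from 2.23 ± 0.22 to 4.45 ± 0.74 TPM (SD of 3 libraries; log2 fold change 0.75, standard error 0.16, adjusted p = 0.0133, limma). GLYCTK, a glycerate kinase, rose from 2.25 ± 0.37 to 3.74 ± 0.13 TPM (SD of 3 libraries; log2 fold change 0.55, adjusted p = 0.0323, limma), and lost its call under 6 of 12 alternatives, namely without the filter on low values and without any 1 library other than siNC replicate 2 (adjusted p up to 0.108). The call of IDNK was lost without siBCAT1 replicate 2 (adjusted p = 0.0515, limma) and without the filter (0.0539). Both were expressed at a few TPM, where the added 1 TPM understates the fold. H6PD, DERA, SHPK, RBKS, PGM1, PGM2, PRPSAP1 and PRPSAP2 did not pass the test. The paralogs TKTL1, TKTL2 and RPEL1 were at 0.16 TPM or less in every library, so TKT and RPE accounted for nearly all measured transcript of their families.

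Of 6 enzymes that use PRPP, 2 rose and none fell, with a median log2 fold change of 0.31. The share called in either direction was near the 27.1% of all tested genes, where 16.7% were higher and 10.4% lower. NAMPT, which makes the NAD precursor nicotinamide mononucleotide, had 131, 118 and 119 TPM in the controls and 221, 152 and 168 TPM after knockdown, in replicate order (log2 fold change 0.53, standard error 0.13, adjusted p = 0.0247, limma). APRT, which salvages adenine, had 168, 174 and 167 TPM in the controls and 203, 205 and 194 TPM after knockdown, in replicate order (log2 fold change 0.24, standard error 0.05, adjusted p = 0.0125, limma). The groups were apart for both, although the calls were lost under 6 and 3 of 13 alternatives. Among these, NAMPT lost its call without siNC replicate 2, siNC replicate 3 or siBCAT1 replicate 3 (adjusted p 0.0576, 0.0740 and 0.0507) and APRT without siBCAT1 replicate 2 (0.0507). PPAT, which takes PRPP into purine synthesis, went from 23.9 ± 1.75 to 19.6 ± 1.21 TPM (SD of 3 libraries), which did not pass the test (log2 fold change -0.28, adjusted p = 0.0566, limma).

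Among 12 genes for NADPH production outside the pathway, 11 were tested, 4 rose and 1 fell, against 16.7% and 10.4% of all tested genes, with a median log2 fold change of 0.27. ME1, the cytosolic malic enzyme, had 9.38, 11.3 and 9.77 TPM in the controls and rose to 17.4, 18.3 and 18.1 TPM (log2 fold change 0.77, standard error 0.10, adjusted p = 0.00188, limma). ALDH1L2 and NNT, both mitochondrial, rose by log2 fold changes of 0.71 and 0.63 from 4.87 and 2.97 TPM, and MTHFD1, the cytosolic folate enzyme, by 0.25 from 795 TPM. IDH1, the cytosolic isocitrate dehydrogenase, fell from a mean of 44.5 to one of 28.4 TPM (log2 fold change -0.63, standard error 0.14, adjusted p = 0.0142, limma). The calls of ME1, NNT and IDH1 held under the 13, 12 and 13 alternatives in which they were tested at an adjusted p of 0.05 alone, and none of them reaches a log2 fold change of 1. That of MTHFD1 was lost under 1 and that of ALDH1L2 under 3 of 13, which include those without siNC replicate 3 (adjusted p = 0.0578, limma) and without siBCAT1 replicate 1 (0.0582).

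PGD, TKT and TALDO1 are known targets of the oxidant-responsive transcription factor NRF2, so a list of 16 genes with NRF2 itself (NFE2L2), its inhibitor KEAP1 and further targets was set beside them. Of these, 13 were tested, 2 rose and 5 fell, against 16.7% and 10.4% of all tested genes, with a median log2 fold change of -0.25. NFE2L2 fell from 63.2 ± 5.66 to 47.3 ± 4.67 TPM (SD of 3 libraries; log2 fold change -0.41, adjusted p = 0.0220, limma). TXNRD1, the cytosolic thioredoxin reductase, fell (log2 fold change -0.63, adjusted p = 0.00521, limma), as did AKR1C3, an aldo-keto reductase (log2 fold change -2.19, adjusted p = 0.000282, limma). GSR and OSGIN1 fell, with log2 fold changes of -0.34 and -0.37, and both calls were lost under 6 of 13 alternatives, among them the absence of either of siNC replicates 1 and 3 or of siBCAT1 replicates 1 and 2 (adjusted p between 0.0712 and 0.120) and, for OSGIN1, of siNC replicate 2 (0.0620). NFE2L2 lost its call under 3, without siNC replicate 1 (0.0710), without siBCAT1 replicate 2 (0.0621) and without the filter on low values (0.0590). PIR and GCLM rose by log2 fold changes of 1.26 and 0.67, and NQO1 did not pass the test (log2 fold change -0.03, adjusted p = 0.775, limma). AKR1C3 has close paralogs, and its value is uncertain where reads could be split between them.

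**Figure D5:**
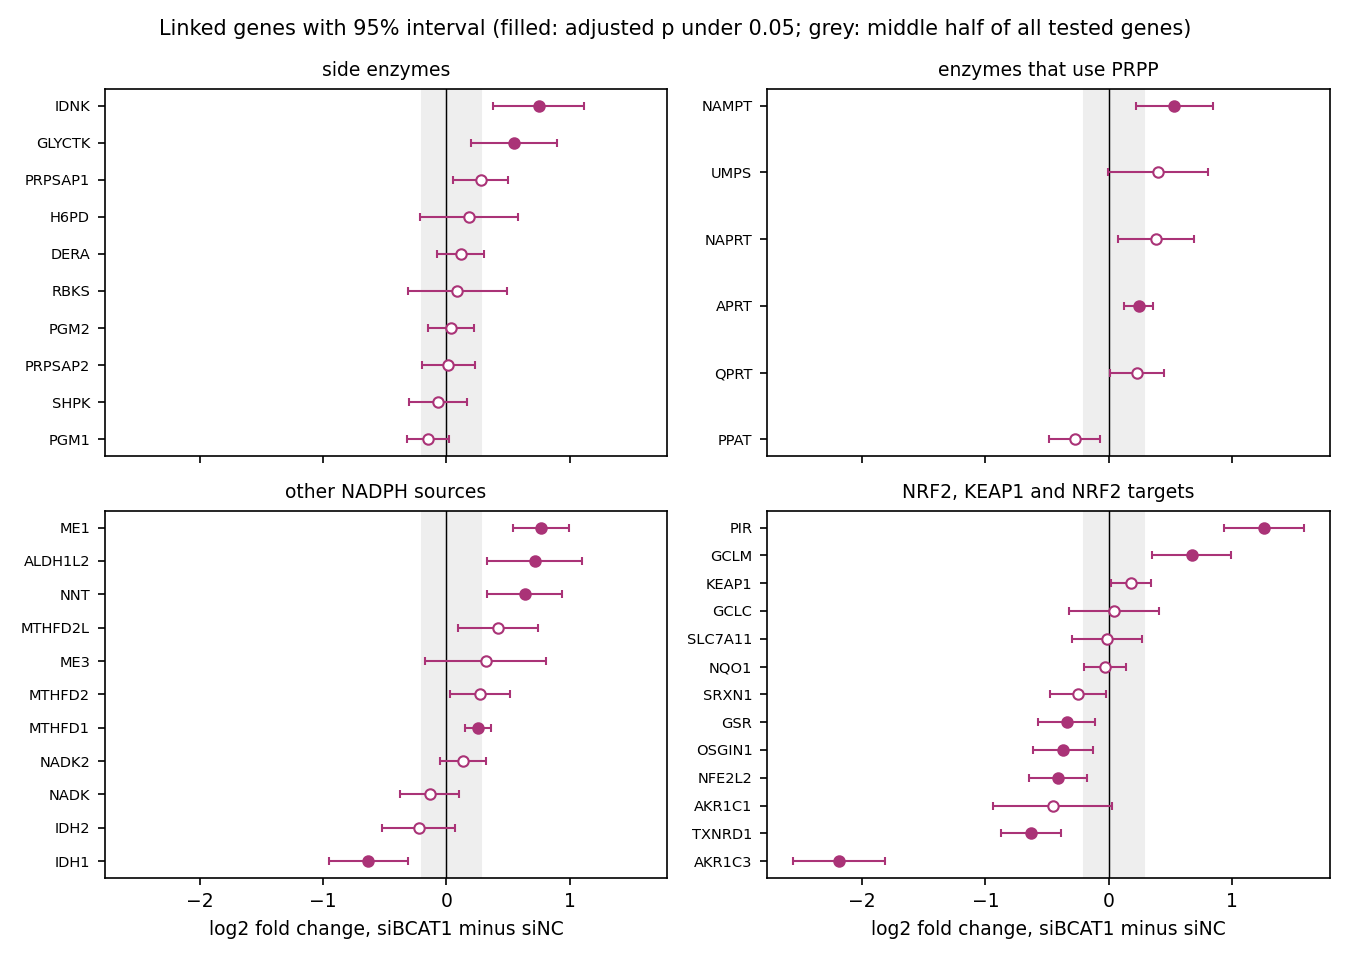
Log2 fold change (siBCAT1 minus siNC) with 95% interval for each tested gene of the 4 linked groups, filled where the adjusted p was under 0.05. Of the 40 genes shown, 10 rose and 6 fell; the 5 that fell in the lower right panel are AKR1C3, TXNRD1, NFE2L2, OSGIN1 and GSR, and IDH1 is the only one elsewhere.

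The transcripts most like TKT and RPIA over the 6 libraries were found by the root mean square difference between mean-centred log2(TPM + 1) profiles. For TKT these were COX6B1 (0.015), CHCHD2 (0.025) and FH (0.026), none of which passed the test. For RPIA they were SLC25A25 (0.047), SMARCC1 (0.050) and ACAT1 (0.051), which rose with log2 fold changes of 0.75, 0.79 and 0.78. With 14286 genes and 6 libraries, close profiles of this kind are a description only. Changes like those of TKT and RPIA follow from the choice by profile.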

How the data were processed

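Total RNA of 67R cells was made into stranded mRNA libraries. According to the submitters' processing notes and the methods of the study, reads were filtered with fastp, mapped to GRCh38 with HISAT2 and assembled with StringTie, whose versions and annotation are not given in the sources used here. The authors deposited 1 value per gene and library, read here as TPM because each column summed to between 992512 and 995593 and the table gives gene lengths. The number of reads behind a value is unknown.

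Groups and replicate numbers came from the sample titles. On the log2(TPM + 1) scale, limma 3.58.1 (R 4.3.3) compared the groups with a two-sided moderated test whose prior variance followed the mean level. It covered the 14286 of 60664 genes whose mean over the libraries reached 1 TPM. P-values were adjusted by Benjamini-Hochberg over these genes and read against 0.05. The fit was also run on simulated data with known changes, whose means and spreads were taken from these libraries. The closest 2 libraries of a group shared 1.42% of their values. Loci, transcripts and 3′ UTRs came from GENCODE 29, and promoter windows from RefSeq (GRCh38.p14), with 8 of 8 members matched. Python 3.11.15 and scipy 1.17.1 served for the exact test.

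The members, the linked lists and the tests were chosen with earlier results of these data known. Named genes were the 8 members, BCAT1, the called genes of each linked list and the 3 tested genes most like TKT and RPIA; genes not called, pseudogenes and overlapping genes were named as context. Alternatives were no low-value filter, a filter at 5 TPM, 0.1 in place of 1 as the pseudocount, a block for the replicate number, median-ratio scaling, quantile normalization, no trend, each library left out, and a minimum log2 fold change of 1.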

Additional observations from a re-analysis of the deposited data

How the results depend on the processing

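A minimum log2 fold change of 1 ended every call among the members. Apart from it, RPIA kept its direction and its call under the 13 other alternatives (log2 fold change 0.66 to 0.84, adjusted p at most 0.0175), as did BCAT1 (-2.28 to -2.03). TKT, PGD and PRPS1 kept their sign and were called under none. RPE lost its call without a filter on low values and without the trend (0.40 in both), under median-ratio scaling (0.35) and under quantile normalization (0.31). PRPS2 gained one with the replicate block (-0.25), median-ratio scaling (-0.30) and quantile normalization (-0.34), and TALDO1 with the last (-0.18). With 1 library left out, log2 fold changes ran from 0.31 to 0.51 for RPE, from 0.12 to 0.26 for PGD, from -0.24 to -0.083 for PRPS1, from -0.086 (without siNC replicate 1) to -0.029 (without siNC replicate 2) for TKT, from -0.32 to -0.21 for PRPS2, from -0.21 to -0.069 for PGLS and, for PRPS1 minus PRPS2, from -0.029 (without siNC replicate 1) to 0.14, the only sign among these that turned. The higher members numbered 1 rather than 2 without a filter, without the trend and under either scaling, 0 with a minimum log2 fold change of 1, and 1 to 2 with a library left out. The lower members numbered 1 rather than 0 with the replicate block and median-ratio scaling, 2 with quantile normalization, and 0 to 1 with a library left out (PGLS without siNC replicate 2, PRPS2 without siNC replicate 3). Genes called in all numbered 3865, 2567 without a filter, 448 with a minimum change, and 2493 to 3783 with a library left out, the lowest without siNC replicate 1 (2493), siBCAT1 replicate 1 (2527) and siBCAT1 replicate 2 (2556). The median log2 fold change of all genes was 0.04, and -0.01 under median-ratio scaling. Where an alternative changed a call, the cause was not tested, beyond the smaller number of libraries or the larger number of genes by construction.

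With the replicate block 4568 genes were called. The labels do not say what a number stands for, and deviations of same-numbered libraries correlated at 0.084, 0.102 and 0.124 across genes. Every library correlated best with its own number, a hint from the data and not the design, and the numbers were not taken as pairs. Precision was limited by the 3 libraries per group and the unknown depth.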
